A study of Mus musculus with 20 samples.

Results

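Quadriceps muscle was compared between the limb of a mouse with a surgically cut anterior cruciate ligament (ACLT) and the other, uninjured limb of the same animal, 7 days after the operation and under a placebo antibody (PLA Ab). The comparison takes 10 of the 20 RNA-seq libraries of the series, 5 from PLA ACLT quadriceps and 5 from PLA control quadriceps, and leaves the libraries of mice given the antibody against GDF8 aside. It covers the 13002 of 17415 listed genes that had at least 1 CPM (read counts of a gene, scaled to the same total in each library) in at least 5 of those 10 libraries. Libraries with the same label number were taken as the 2 limbs of 1 mouse and are called mice 1 to 5.

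The PLA ACLT group is the operated limb of mice that received the placebo antibody by injection under the skin, and the PLA control group is the limb of the same mice that was not operated on. The animals were adult and of both sexes, and the study dosed C57BL/6J mice and Col1-eGFP reporter mice without saying which of them gave these libraries. Both limbs had therefore shared the antibody, the anaesthesia and any body-wide response to surgery, and sham-operated limbs were not analysed here. The ligament lies inside the knee, and the sources used here do not say whether the operation also reached the quadriceps.

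The quadriceps loses strength and fibre size after this ligament is torn. In injured or unloaded muscle generally, macrophages take up debris, fibro-adipogenic progenitors (the connective tissue cells between fibres) lay down matrix, and satellite cells, the stem cells of muscle, divide, differentiate and fuse to fibres that pass through an embryonic set of contractile proteins. Fibres that lose contact with their nerve switch the fetal acetylcholine receptor back on. Because whole muscle was sequenced, more cells of a type and more RNA per cell cannot be told apart in any value below.

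The libraries had depths of about 20.3 to 21.6 megareads in ACLT limbs and 15.6 to 24.2 megareads in control limbs, as estimated from the steps between low values, and 3 reads corresponded to 0.124 to 0.193 CPM. The fast fibre gene Myh4, which encodes the heavy chain of the fastest myosin and marks this mostly fast muscle, had 32888 to 73978 CPM in ACLT limbs, against 30440.0 to 57761 CPM in control limbs. The first principal component held 77.8% of the variance. The control libraries lay between -52.1 and -33.1 on it, and the ACLT libraries of mice 1 to 5 lay at -17.6, 34.9, -6.1, 73.8 and 106, so that each ACLT library was above all controls but to a very different extent. The Y-linked genes Ddx3y, Eif2s3y, Kdm5d and Uty averaged at least 30.8 CPM in both limbs of mice 1 and 3 and at most 0.155 CPM in both limbs of mice 2, 4 and 5. Mice 2, 4 and 5 expressed Xist at 331, 465 and 562 CPM in ACLT limbs and 179, 229 and 220 CPM in control limbs. The ACLT libraries nearest to the controls were thus those of the 2 mice with Y-linked expression, and with 2 and 3 mice the sex of the animal and its place on this axis cannot be told apart.

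Far more genes were higher than lower after ACLT. In a limma fit of log2(CPM + 1) with the mouse as a random block, 1974 of 13002 genes (15.2%) were higher and 42 (0.323%) lower in ACLT limbs at a Benjamini-Hochberg adjusted p under 0.05, and 4683 genes had an unadjusted p under 0.05. Among the higher genes 1292 differed by 2-fold or more, and none of the lower genes did, the largest drop being in Ostn. All 5 ACLT libraries lay above all 5 controls for 1315 genes (10.1%) and below them for 62 (0.477%). For 156 of the 1315 the filter fixed this, since they reached 1 CPM in the 5 ACLT libraries and in no control, and 153 of them were called higher. These 153 kept their call in a fit without a filter on low values. Among genes named below they are Adam8, Ccl2, Ccl8, Chrng, Csf3r, Il7r, Itgax, Ltbp2, Mki67, Mmp12, Mt3, Mymk, Mymx, Top2a and Trem2, whose groups could not overlap. Over all tested genes the ACLT limb was higher in 5 of 5 mice for 3553 genes (27.3%) and lower in 5 of 5 for 496 (3.81%). Counts of called list members below stand beside the 15.2% called higher and 0.323% called lower over all tested genes. Counts given without the mouse block stand instead beside the 710 of 13002 genes called higher and 3 called lower in that fit. The deposited scaling fixes each library at the same total, so a rise or fall of abundant genes shifts the values of the rest. As deposited, the median gene stood higher in ACLT limbs and not lower, and the cause was not tested. The median log2 fold change of all genes was 0.19 as deposited and -0.05 after median-of-ratios scaling. The split of calls then was 1817 higher and 1050 lower, so that higher genes made up 97.9% of calls as deposited and 63.4% after that scaling. Counts of list members after that scaling stand beside 1817 higher and 1050 lower of 13002 genes.

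These calls lean on the pairing of limbs and on single mice, most of all on mice 2 and 4. Without the mouse block 713 of the 2016 calls were left, 710 higher and 3 lower, and where a gene named below lost its call in that fit its adjusted p is given. Leaving out both limbs of mouse 2 left 12 calls, of mouse 4 left 11, of mouse 5 left 551 and of mouse 3 left 1126, whereas leaving out mouse 1 gave 3341. Adjusted p over the 2016 genes then had a median of 0.102 without mouse 2 and 0.137 without mouse 4 and reached 0.163 and 0.219, and no called gene changed sign in any of these 5 fits. The 11 genes called in all 5 fits were Mmp12, Gpnmb, Fosb, Lgals3, Fos, Adam8, C4b, Mt3, Mpeg1, Ctss and Cd68. Every other gene called below therefore lost its call without mouse 4.

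**Figure D1:**
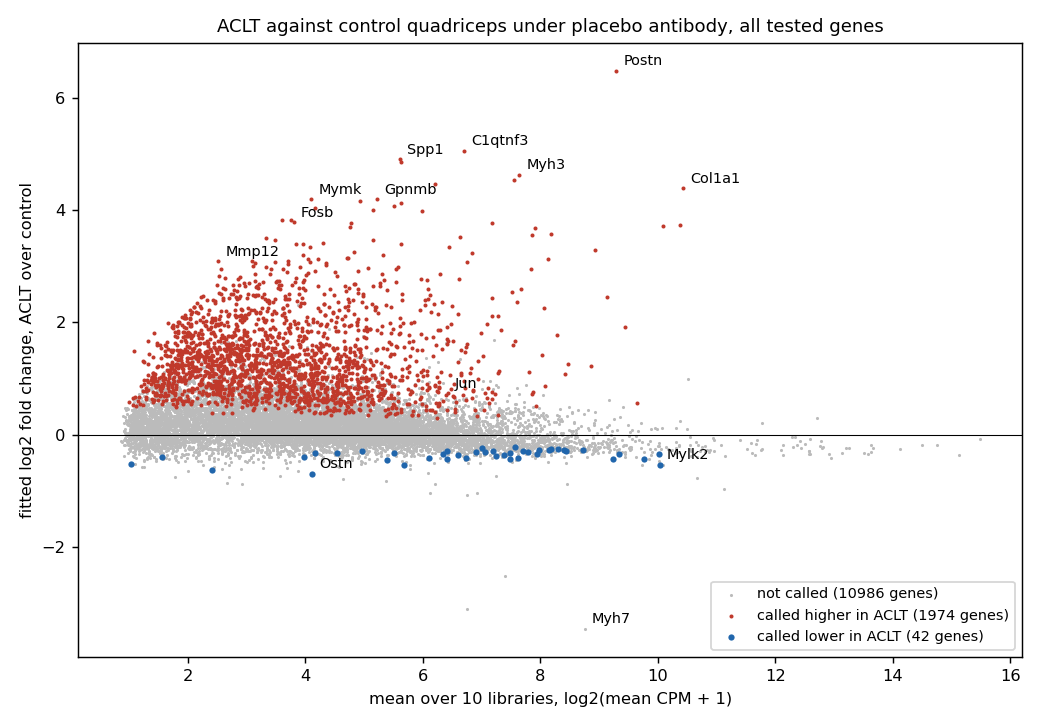
Fitted log2 fold change (ACLT over control, y axis) against the mean level of the gene over 10 libraries (x axis, log2 of CPM + 1) for the 13002 tested genes, with the 1974 genes called higher in red and the 42 called lower in blue. Red points reach 6.49 for Postn, no blue point lies below -0.70, and the slow myosin gene Myh7 at -3.47 is not called.

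For most called genes the difference between limbs was greatest in mouse 5 and smallest in mouse 1. Over the 1974 higher genes the median difference between limbs on the log2 scale was 0.39, 1.10, 0.74, 1.71 and 2.26 in mice 1 to 5, beside 0.00, 0.17, 0.11, 0.35 and 0.43 over all tested genes. Mouse 5 had the greatest difference for 1742 of these genes, and mouse 1 the smallest for 1522. The 42 lower genes had medians of -0.26, -0.45, -0.09, -0.30 and -0.60. Mice 1 and 3, with the smaller differences, are the mice with Y-linked expression. The part of sex in this was not tested, since the labels do not give it.

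**Figure D2:**
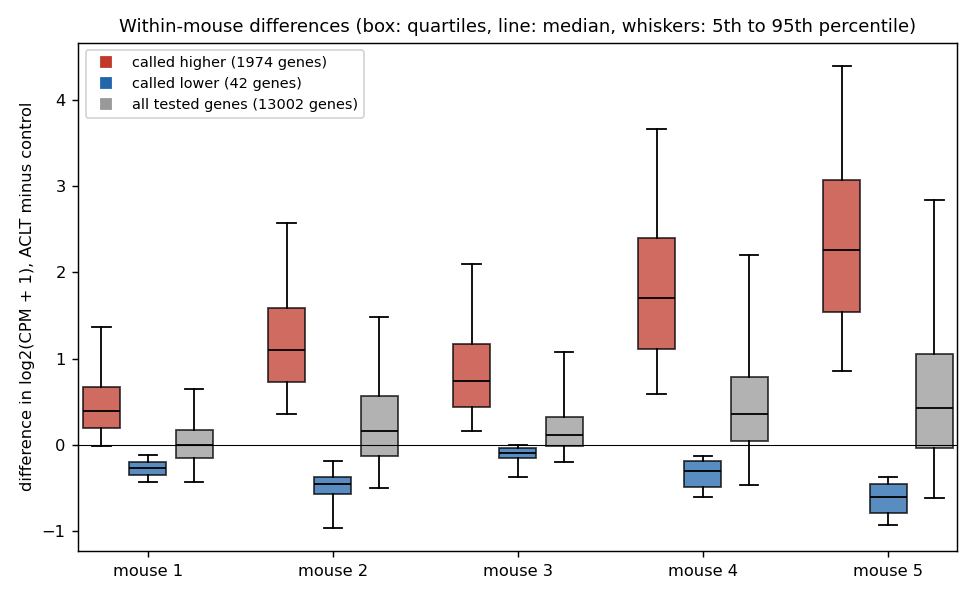
Difference in log2(CPM + 1) between the ACLT and control limb (y axis) in each of the 5 mice (x axis) for genes called higher (red), called lower (blue) and all tested genes (grey), as quartile boxes with whiskers at the 5th and 95th percentile. The red median climbs to 2.26 in mouse 5 and stays at 0.39 in mouse 1, whereas the grey medians lie between 0.00 and 0.43.

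Most of the 11 genes called whichever mouse was left out are known from macrophages or from the immediate early response. Mmp12, the macrophage elastase, had 7.65, 12.6, 8.92, 4.40 and 12.8 CPM in the ACLT limbs of mice 1 to 5, against 0.127, 0.291, 0.0463, 0.128 and 0.124 CPM in their control limbs. Control limbs other than that of mouse 2 held no more than about 3 reads of Mmp12. Mmp12 differed by 3.09 ± 0.22 (SE) on the log2 scale (adjusted p = 0.000224). Fitted folds of such genes, here and below, depend on the pseudocount and are no bound. Gpnmb, a lysosomal membrane glycoprotein of macrophages that take up debris, had 28.9, 43.6, 43.9, 125 and 109 CPM in the ACLT limbs, against 2.79, 2.99, 1.16, 1.99 and 3.09 CPM in the control limbs. Gpnmb differed by 4.20 ± 0.35 (SE) on the log2 scale (adjusted p = 0.000521). Every ACLT library was above every control for Gpnmb. Among ACLT limbs Mmp12 was lowest in mouse 4, and Gpnmb was highest there.

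Promoters of 4 genes with strong rises, 3 of them known from macrophages and 1 from the fetal nerve-muscle synapse, are printed. These genes rose with their groups and hold a match to at least 1 of 3 motifs. They were chosen after their values and matches were seen. The sequences are the 250 bases before the RefSeq transcription start, 5′ to 3′ on the gene's strand, build GRCm38.p6. Matches to the motif named for each gene are in capitals. They are ACTTCCTC, the reverse complement of GAGGAAGT, a form of the site of the macrophage factor PU.1, in Mmp12 (chr9:7344147-7344396, plus strand), and GAGGAAGT in Spp1 (chr5:104434861-104435110, plus strand). TGANTCA, the site of AP-1 dimers of Fos and Jun proteins, is in Cd68 (chr11:69666171-69666420, minus strand). CAGCTG, an E-box bound by muscle factors such as myogenin, is in Chrng (chr1:87205561-87205810, plus strand). The Cd68 sequence holds CAGCTG as well, overlapping its first TGAGTCA and not marked there.
Mmp12: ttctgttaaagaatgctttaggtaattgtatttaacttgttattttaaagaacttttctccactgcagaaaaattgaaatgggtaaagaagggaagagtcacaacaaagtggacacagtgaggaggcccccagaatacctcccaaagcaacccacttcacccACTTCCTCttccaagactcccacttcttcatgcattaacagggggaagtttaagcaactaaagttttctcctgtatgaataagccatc
Spp1: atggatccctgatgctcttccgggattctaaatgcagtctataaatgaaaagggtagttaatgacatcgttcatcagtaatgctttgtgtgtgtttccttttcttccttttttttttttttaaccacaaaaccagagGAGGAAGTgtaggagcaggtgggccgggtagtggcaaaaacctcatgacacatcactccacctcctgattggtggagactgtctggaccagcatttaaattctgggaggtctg
Cd68: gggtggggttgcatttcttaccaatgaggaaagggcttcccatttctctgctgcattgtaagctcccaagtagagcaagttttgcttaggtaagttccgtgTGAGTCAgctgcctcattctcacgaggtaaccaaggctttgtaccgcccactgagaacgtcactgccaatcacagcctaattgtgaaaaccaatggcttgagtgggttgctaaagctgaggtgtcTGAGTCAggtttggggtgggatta
Chrng: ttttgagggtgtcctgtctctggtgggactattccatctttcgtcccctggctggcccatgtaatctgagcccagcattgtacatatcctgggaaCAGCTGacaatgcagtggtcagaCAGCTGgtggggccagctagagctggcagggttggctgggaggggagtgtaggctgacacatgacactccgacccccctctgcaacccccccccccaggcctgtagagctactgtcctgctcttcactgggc
With both strands searched in 9894 tested genes that had a promoter sequence, TGANTCA was found in 5.36%, CAGCTG in 14.6% and GAGGAAGT in 2.75%. Of 1520 genes called higher, 7.63% held TGANTCA, 17% CAGCTG and 4.01% GAGGAAGT. Of only 31 genes called lower, 16.1% held TGANTCA, 25.8% CAGCTG and 3.23% GAGGAAGT, so the first 2 shares were not particular to higher genes. CAGCTG was in 0 of 6 satellite cell and myogenic genes and in 4 of 10 denervation and neuromuscular junction genes. TGANTCA was in 0 of 12 immediate early genes and in 14.3% of 14 macrophage and monocyte markers. Differences between these shares were not tested. A match is a description of these letters only, no binding was measured, and the coordinates belong to GRCm38.p6 and not to the deposited table.

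Macrophage and monocyte markers rose together: 19 of 20 tested members were called higher, with a median log2 fold change of 2.74 beside 0.19 over all genes. The filter passed 3 of the 19 through ACLT limbs alone, and of the other 17 tested members 15 lay above all controls in every ACLT library. Over all tested genes without those passed in that way, this held for 1159 of 12846. Without the mouse block 18 members kept the call. Ctss, a lysosomal protease of antigen-presenting cells, had 23.4, 52.4, 35.8, 146 and 212 CPM in the ACLT limbs, against 3.04, 3.47, 1.85, 2.89 and 3.55 CPM in the control limbs. Ctss differed by 4.13 ± 0.47 (SE) on the log2 scale (adjusted p = 0.00274). Cd68, the scavenger protein used to stain macrophages, had 12.4, 17.7, 12.3, 44.4 and 64.6 CPM in the ACLT limbs, against 1.82, 1.81, 0.601, 1.73 and 1.73 CPM in the control limbs. Cd68 differed by 3.34 ± 0.39 (SE) on the log2 scale (adjusted p = 0.00333). Lyz2, lysozyme of myeloid cells, had the highest CPM in the list, with 139, 278, 186, 692 and 959 CPM in the ACLT limbs, against 32.0, 42.6, 15.4, 17.3 and 30.5 CPM in the control limbs. Lyz2 differed by 3.69 ± 0.47 (SE) on the log2 scale (adjusted p = 0.0062). The ACLT limbs of mice 4 and 5 stood highest for all 3 genes, and the groups never overlapped. Mpeg1, which encodes the pore-forming perforin-2 of macrophages, was at 20.4 to 206 CPM in ACLT limbs, against 0.555 to 2.16 CPM in control limbs (log2 fold change 4.86 ± 0.52 (SE), adjusted p = 0.0024). The C1q subunit gene C1qb was at 27.6 to 214 CPM in ACLT limbs, against 2.36 to 9.98 CPM in control limbs (log2 fold change 3.39 ± 0.46 (SE), adjusted p = 0.00758). Mean differences over the list were 1.39, 2.06, 2.28, 3.44 and 3.92 in mice 1 to 5, so that the list was higher in the ACLT limb of every mouse.

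Genes of debris-clearing macrophages rose with them, 11 of 15 tested members with a median of 1.57, of which 2 passed the filter through ACLT limbs alone. Lgals3, the lectin galectin-3, had 29.4, 34.9, 31.7, 107 and 130.3 CPM in the ACLT limbs, against 3.13, 3.33, 1.34, 1.99 and 2.85 CPM in the control limbs. Lgals3 differed by 4.00 ± 0.39 (SE) on the log2 scale (adjusted p = 0.00129). Trem2, a lipid receptor of the same cells, had 3.70, 10.5, 7.07, 26.5 and 41.1 CPM in the ACLT limbs, against 0.0846, 0.380, 0.231, 0.321 and 0.124 CPM in the control limbs. Trem2 differed by 3.50 ± 0.46 (SE) on the log2 scale (adjusted p = 0.0065). Ctsb, a lysosomal protease that muscle fibres express as well, was at 368 to 1143 CPM in ACLT limbs, against 227 to 303 CPM in control limbs (log2 fold change 1.22 ± 0.25 (SE), adjusted p = 0.0172). Lamp1, a membrane protein of all lysosomes, did not pass the test at 434 to 641 CPM in ACLT limbs, against 395 to 491 CPM in control limbs (adjusted p = 0.225). Of 9 tested dendritic cell and MHC class II genes 8 were called higher (median 2.31), and 1 of them, Itgax, passed the filter through ACLT limbs alone. H2-Aa, the alpha chain of the I-A molecule, had 17.5, 41.5, 14.9, 56.6 and 106 CPM in the ACLT limbs, against 7.40, 11.03, 4.02, 4.23 and 5.98 CPM in the control limbs. H2-Aa differed by 2.40 ± 0.44 (SE) on the log2 scale (adjusted p = 0.013). Itgax, the integrin CD11c of dendritic cells and some macrophages, had 2.91 to 17.9 CPM in ACLT limbs, against 0.0463 to 0.254 CPM in control limbs (log2 fold change 2.96 ± 0.37 (SE), adjusted p = 0.00554).

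Markers of other blood cells were mostly too low to test. Of 12 neutrophil markers 9 are in the table and 2 were tested, and S100a8 and S100a9, which encode abundant proteins of neutrophils, were among the 7 under the filter, none of which exceeded 1.96 CPM in any library. The summed level of the 9 was 6.58 to 21.5 CPM in ACLT limbs and 2.39 to 10.7 CPM in control limbs. Csf3r, the receptor for granulocyte colony-stimulating factor that monocytes also carry, was the only called member at 1.39 to 10.8 CPM in ACLT limbs, against 0.278 to 0.634 CPM in control limbs (log2 fold change 1.82 ± 0.35 (SE), adjusted p = 0.0146). Of 16 T and NK cell markers 8 are in the table and 2 were tested, with a summed level of 4.64 to 11.2 CPM in ACLT limbs and 2.03 to 7.05 CPM in control limbs. Il7r, the interleukin-7 receptor, rose to 1.04, 1.38, 1.57, 3.74 and 3.04 CPM in the ACLT limbs, against 0.0423, 0.0950, 0, 0.128 and 0.0825 CPM in the control limbs. Il7r differed by 1.48 ± 0.21 (SE) on the log2 scale (adjusted p = 0.00842). Cd3e, part of the T cell receptor complex, had 4.49, 2.76, 2.45, 2.04 and 2.48 CPM in the ACLT limbs, against 1.56, 6.18, 2.50, 1.54 and 3.80 CPM in the control limbs (adjusted p = 0.978) and overlapped between groups. The only tested B cell gene, Ighm, the heavy chain of IgM, had 147, 40.02, 289, 35.2 and 31.0 CPM in the ACLT limbs, against 162, 71.2, 326, 21.2 and 34.0 CPM in the control limbs (adjusted p = 0.919), and was highest in both limbs of mice 1 and 3. Under the filter, and so not tested, were 6 T and NK cell and 4 B and plasma cell markers. Cd4, the highest of the 6, had 0.185 to 3.69 CPM in ACLT limbs and 0 to 0.321 CPM in control limbs. Cd22, the highest of the 4, had 0.231 to 2.92 CPM in ACLT limbs, above its 0 to 0.127 CPM in control limbs. The groups overlapped for Cd4 and for all the others. None of 4 tested mast cell markers and none of 5 tested red blood cell genes was called.

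Chemokines and complement genes rose as well. Of 10 tested chemokine ligands 6 were called higher (median 2.18), 3 of them genes that passed the filter through ACLT limbs alone. Ccl8, which draws monocytes, had 3.31, 14.7, 3.74, 9.90 and 45.3 CPM in the ACLT limbs, against 0.507, 0.238, 0.555, 0.257 and 0.0825 CPM in the control limbs. Ccl8 differed by 3.07 ± 0.51 (SE) on the log2 scale (adjusted p = 0.0112). Ccl2, the main monocyte attractant, had 2.47, 2.56, 2.45, 4.26 and 14.6 CPM in the ACLT limbs, against 0.127, 0.665, 0.0925, 0.128 and 0.0413 CPM in the control limbs. Ccl2 differed by 2.10 ± 0.36 (SE) on the log2 scale (adjusted p = 0.0114). Mouse 5 was the highest for both. Complement genes other than C1q rose in 10 of 12 cases (median 1.24). C4b, whose reads may be shared with its near copy C4a, had 29.1, 38.1, 42.1, 39.3 and 63.7 CPM in the ACLT limbs, against 13.5, 8.65, 4.76, 8.40 and 7.05 CPM in the control limbs. C4b differed by 2.22 ± 0.24 (SE) on the log2 scale (adjusted p = 0.0024). C3ar1, the receptor for the C3a fragment, was at 7.25 to 62.3 CPM in ACLT limbs, against 0.416 to 1.09 CPM in control limbs (log2 fold change 3.40 ± 0.46 (SE), adjusted p = 0.00758). Cfb, factor B of the alternative pathway, was at 11.5 to 37.4 CPM in ACLT limbs, against 2.13 to 5.05 CPM in control limbs (log2 fold change 2.20 ± 0.29 (SE), adjusted p = 0.00644). Of 17 tested interferon-stimulated genes 10 were higher (median 1.09, 6 without the mouse block, 2 passed through ACLT limbs alone), among them Irf7, a transcription factor of the interferon response, at 3.60 to 20.8 CPM in ACLT limbs, against 1.11 to 2.75 CPM in control limbs (log2 fold change 1.62 ± 0.36 (SE), adjusted p = 0.0219). The called proteasome genes, 2 of 37 and 1 without the mouse block, were Psmb8 (adjusted p = 0.0566 without it) and Psmb9, interferon-inducible subunits that replace their standard counterparts. After median-of-ratios scaling 2 further proteasome genes were called lower, beside 1050 of 13002 tested genes. As deposited, 2 of 37 was under the 15.2% called higher over all genes. Psmb9 had 3.08 to 8.42 CPM in ACLT limbs, against 1.20 to 2.76 CPM in control limbs (log2 fold change 1.03 ± 0.21 (SE), adjusted p = 0.0183).

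Immediate early genes, which are switched on within minutes of a stimulus, also rose: 12 of 16 were called higher with a median of 1.21. Fosb had 43.5, 10.6, 18.1, 15.7 and 38.3 CPM in the ACLT limbs of mice 1 to 5, against 0.465, 1.09, 0.324, 0.641 and 0.949 CPM in their control limbs. Fosb differed by 3.78 ± 0.32 (SE) on the log2 scale (adjusted p = 0.000521). Fos had 98.2, 34.4, 35.4, 45.7 and 109 CPM in the ACLT limbs, against 7.95, 5.99, 2.13, 3.14 and 3.75 CPM in the control limbs. Fos differed by 3.48 ± 0.34 (SE) on the log2 scale (adjusted p = 0.00129). For both, mice 1 and 5 were highest, although mouse 1 had the smallest difference for most called genes. The mean differences of the list were 1.42, 1.07, 1.22, 1.52 and 2.49. Jun, which pairs with Fos in AP-1, rose by less than 2-fold, with 127, 87.2, 85.2, 116 and 118 CPM in the ACLT limbs, against 63.1, 63.7, 58.9, 74.2 and 55.5 CPM in the control limbs. Jun differed by 0.74 ± 0.12 (SE) on the log2 scale (adjusted p = 0.0112). Its antisense transcript Junos was among the lower genes at 2.07 to 4.05 CPM in ACLT limbs, against 4.65 to 6.54 CPM in control limbs (log2 fold change -0.64 ± 0.16 (SE), adjusted p = 0.0273, 0.0515 without the mouse block). The sources used here do not say whether counting used the strand, and without it reads from the stretch where Jun and Junos overlap cannot be told apart. The nuclear receptor genes of the list did not pass the test. Nr4a1 was at 77.5 to 206 CPM in ACLT limbs, against 82.2 to 153 CPM in control limbs (adjusted p = 0.685). Nr4a3 at 1.62 to 5.27 CPM in ACLT limbs, against 0.925 to 4.23 CPM in control limbs (adjusted p = 0.214).

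Collagen and other matrix genes rose strongly and unequally between mice. Of 10 tested fibrillar collagens 7 were called higher (median 2.90). Col1a1, the main chain of type I collagen, had 177, 1422, 357, 4693 and 6803 CPM in the ACLT limbs of mice 1 to 5, against 76.8, 57.8, 30.2, 59.1 and 80.4 CPM in their control limbs. Col1a1 differed by 4.40 ± 0.80 (SE) on the log2 scale (adjusted p = 0.0129). Col3a1, of the finer type III fibrils, had 356, 1574, 648, 4742 and 5418 CPM in the ACLT limbs, against 123, 166, 69.6, 113 and 131 CPM in the control limbs. Col3a1 differed by 3.74 ± 0.61 (SE) on the log2 scale (adjusted p = 0.0112). Both were higher in every ACLT library than in any control, with the lowest ACLT value in mouse 1 and the highest in mouse 5. Col11a1, a minor chain that sets fibril width, missed the threshold with 0.197, 16.6, 1.20, 33.6 and 53.9 CPM in the ACLT limbs, against 1.44, 0.570, 0.463, 1.48 and 1.69 CPM in the control limbs (adjusted p = 0.0878), mouse 1 going the other way. Of 18 other collagens 13 were higher (3 without the mouse block, median 1.46), among them Col4a1 of the basement membrane at 97.5 to 262 CPM in ACLT limbs, against 65.0 to 91.2 CPM in control limbs (log2 fold change 0.98 ± 0.21 (SE), adjusted p = 0.0198). Col14a1, which links fibrils, was at 9.87 to 154 CPM in ACLT limbs, against 1.67 to 9.88 CPM in control limbs (log2 fold change 2.95 ± 0.64 (SE), adjusted p = 0.0209). Fibrillar collagens differed by means of 0.47, 2.49, 1.87, 3.98 and 3.89 in mice 1 to 5.

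Postn (periostin, a matrix protein of activated fibroblasts) had the largest fold of any called gene, with 25.9, 885, 105, 2295 and 2952 CPM in the ACLT limbs of mice 1 to 5, against 3.93, 3.18, 2.08, 6.80 and 4.87 CPM in their control limbs. Postn differed by 6.49 ± 1.01 (SE) on the log2 scale (adjusted p = 0.0105). Spp1, osteopontin, made by macrophages and other cells, had 11.2, 25.4, 33.6, 145 and 259 CPM in the ACLT limbs, against 0.803, 0.618, 0.555, 1.41 and 0.536 CPM in the control limbs. Spp1 differed by 4.92 ± 0.64 (SE) on the log2 scale (adjusted p = 0.00644). Tnc, tenascin-C of injured tissue, had 4.93, 121, 21.9, 436 and 1257 CPM in the ACLT limbs, against 4.48, 3.18, 1.90, 2.31 and 5.20 CPM in the control limbs, so that mouse 1 lay within the controls (log2 fold change 4.53 ± 1.09 (SE), adjusted p = 0.0252, 0.0503 without the mouse block). In all, 16 of 24 matricellular and adhesive proteins were higher (7 without the mouse block, median 1.91), and 6 of 11 proteoglycans (1 without it, median 1.37). Of the 16, 1 passed the filter through ACLT limbs alone. Bgn (biglycan) was the proteoglycan that kept its call, at 64.9 to 1006 CPM in ACLT limbs, against 24.5 to 38.9 CPM in control limbs (log2 fold change 2.95 ± 0.61 (SE), adjusted p = 0.0182). Fmod (fibromodulin, common in tendon) overlapped at 18.7 to 205 CPM in ACLT limbs, against 40.2 to 128 CPM in control limbs (adjusted p = 0.978).

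Enzymes that mature and cut collagen rose as well. Of 22 maturation enzymes 15 were higher (6 without the mouse block, median 1.74). Lox, which starts crosslinks by oxidising lysines, had 10.9, 110.0, 28.8, 257 and 536 CPM in the ACLT limbs, against 8.84, 7.75, 4.07, 5.07 and 9.53 CPM in the control limbs. Lox differed by 3.52 ± 0.79 (SE) on the log2 scale (adjusted p = 0.0219). Adamts2, which trims procollagen, had 15.8 to 95.8 CPM in ACLT limbs, against 7.03 to 11.9 CPM in control limbs (log2 fold change 1.87 ± 0.39 (SE), adjusted p = 0.0183). P4ha1, a prolyl hydroxylase, did not pass the test at 46.6 to 106 CPM in ACLT limbs, against 41.1 to 70.6 CPM in control limbs (adjusted p = 0.403). Of 23 tested matrix proteases and inhibitors 18 were higher (11 without the mouse block, median 1.86), 7 of them genes that passed the filter through ACLT limbs alone. Adam8, a membrane protease of leukocytes, had 6.37, 10.3, 7.25, 18.4 and 30.5 CPM in the ACLT limbs, against 0.973, 0.808, 0.278, 0.449 and 0.371 CPM in the control limbs. Adam8 differed by 3.10 ± 0.34 (SE) on the log2 scale (adjusted p = 0.0024). Adamts5, which cuts aggrecan and versican, rose by less than 2-fold, with 28.8, 22.6, 23.3, 33.6 and 36.0 CPM in the ACLT limbs, against 19.1, 17.6, 13.0, 11.8 and 13.2 CPM in the control limbs. Adamts5 differed by 0.90 ± 0.16 (SE) on the log2 scale (adjusted p = 0.0129). Serpine2, a serine protease inhibitor, averaged 108 ± 2.60 CPM in ACLT limbs and 109.5 ± 10.3 CPM in control limbs (SD, n = 5 each, adjusted p = 0.874).

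Markers of the cells that make matrix had smaller medians than the matrix lists. Of 13 fibro-adipogenic progenitor markers 7 were higher (2 without the mouse block, median 0.90), among them Dpt (dermatopontin) at 50.4 to 161 CPM in ACLT limbs, against 21.0 to 59.1 CPM in control limbs (log2 fold change 1.40 ± 0.29 (SE), adjusted p = 0.0183). The transcription factor gene Osr1 was at 3.93 to 7.15 CPM in ACLT limbs, against 1.15 to 3.51 CPM in control limbs (log2 fold change 0.90 ± 0.20 (SE), adjusted p = 0.0225). Of 10 smooth muscle and myofibroblast genes 5 were higher, and none of them without the mouse block. Acta2, smooth muscle actin, had 29.4, 86.9, 22.5, 152 and 350.0 CPM in the ACLT limbs, against 14.2, 13.5, 11.7, 22.4 and 15.5 CPM in the control limbs. Acta2 differed by 2.32 ± 0.56 (SE) on the log2 scale (adjusted p = 0.026, 0.0525 without the mouse block). Of 13 endothelial markers 2, Aplnr and Plvap, and of 6 Schwann cell markers 1, Pmp22, were called, shares near the 15.2% of all genes, and each lost its call without the mouse block (adjusted p = 0.0892, 0.0746 and 0.0894). None of 11 adipocyte markers was, the mean differences of that list running from 2.04 in mouse 3 to -1.21 in mouse 4. C1qtnf3, a secreted C1q-like protein also called cartonectin, and Mest, an imprinted gene of mesenchyme, were among the 10 largest folds. C1qtnf3 had 5.43, 92.4, 12.2, 395 and 523 CPM in the ACLT limbs, against 1.14, 1.28, 0.601, 1.15 and 1.36 CPM in the control limbs. C1qtnf3 differed by 5.06 ± 0.98 (SE) on the log2 scale (adjusted p = 0.0154). Mest had 5.30, 132, 11.7, 233 and 341 CPM in the ACLT limbs, against 1.74, 1.54, 1.89, 1.83 and 1.80 CPM in the control limbs. Mest differed by 4.47 ± 0.90 (SE) on the log2 scale (adjusted p = 0.0166).

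**Figure D3:**
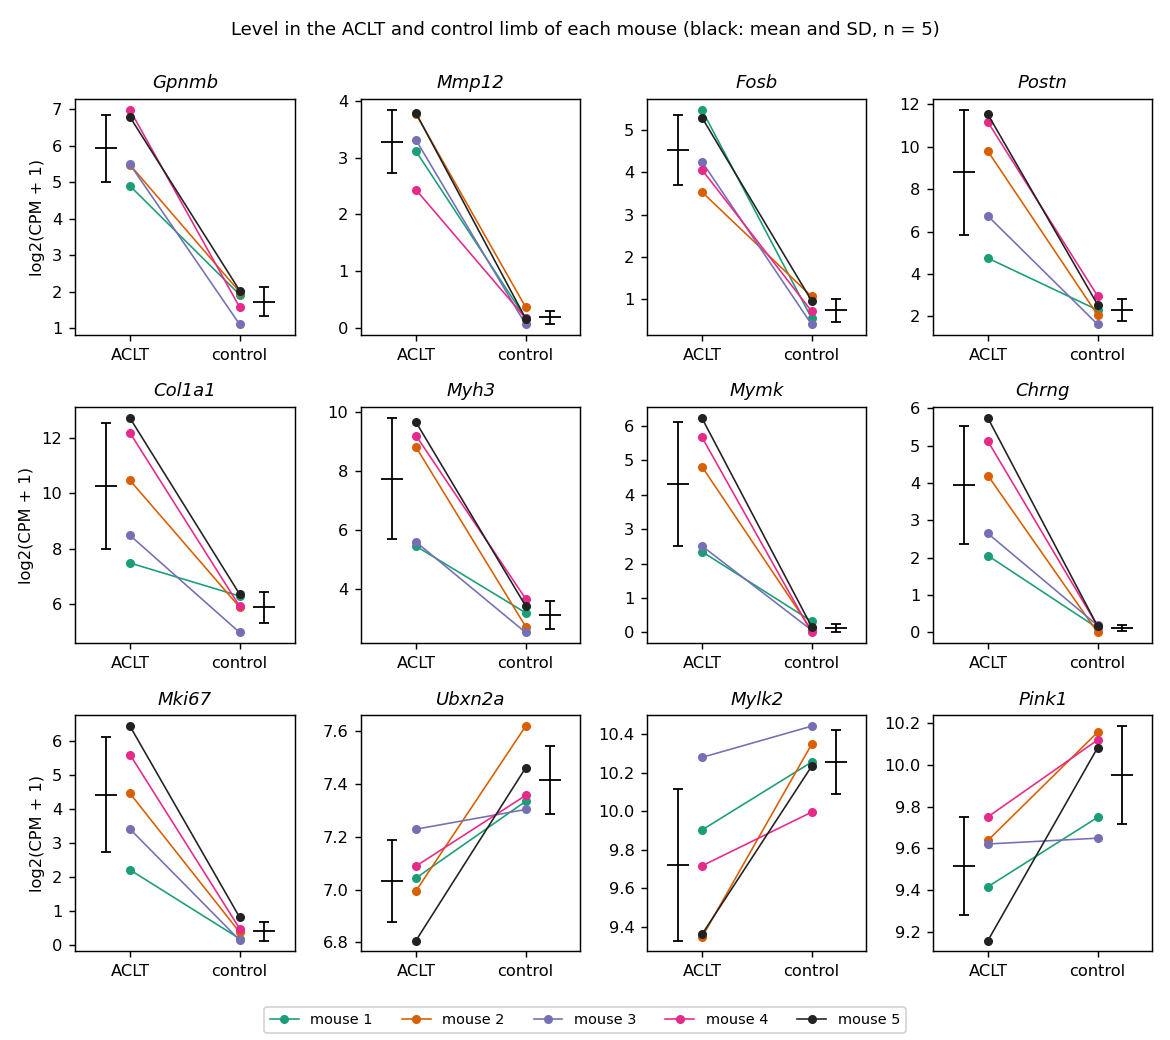
Level on the log2(CPM + 1) scale (y axis) in the ACLT limb (left) and control limb (right) of each of the 5 mice, joined by a line, for 12 genes, with the mean and SD of each group in black. For Mmp12, Gpnmb and Fosb every mouse is higher in its ACLT limb, for Postn, Col1a1, Myh3 and Mymk mice 1 and 3 stay low in ACLT limbs, and the lower genes Ubxn2a, Mylk2 and Pink1 differ on a far narrower scale.

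Genes of muscle regeneration rose too. Of 15 tested satellite cell and myogenic genes 10 were higher (4 without the mouse block, median 1.15), 2 of which, Mymk and Mymx, passed the filter through ACLT limbs alone. Mymk, the membrane protein that lets myoblasts fuse, had 4.10, 27.3, 4.71, 50.2 and 74.3 CPM in the ACLT limbs of mice 1 to 5, against 0.254, 0.0475, 0.0463, 0 and 0.124 CPM in their control limbs. Mymk differed by 4.19 ± 0.63 (SE) on the log2 scale (adjusted p = 0.0105). Its partner in fusion, Mymx, was at 2.02 to 23.4 CPM in ACLT limbs, against 0 to 0.601 CPM in control limbs (log2 fold change 2.80 ± 0.49 (SE), adjusted p = 0.0121). The control limbs of mice 2 to 5 held no more than 3 reads of Mymk. Myog, the transcription factor of muscle differentiation, had 12.6, 47.9, 17.1, 91.3 and 135 CPM in the ACLT limbs, against 2.45, 4.23, 6.48, 4.94 and 5.28 CPM in the control limbs. Myog differed by 2.97 ± 0.51 (SE) on the log2 scale (adjusted p = 0.0114). Every ACLT limb was above every control for Myog. Myf6, the myogenic factor of mature fibres, overlapped at 58.9 to 83.7 CPM in ACLT limbs, against 41.6 to 62.5 CPM in control limbs (adjusted p = 0.121).

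Of 14 developmental and stress sarcomere genes 6 were higher (4 without the mouse block, median 0.82). Embryonic myosin Myh3 had 43.1, 451, 47.7, 590.5 and 810.4 CPM in the ACLT limbs of mice 1 to 5, against 8.20, 5.66, 4.80, 11.8 and 9.80 CPM in their control limbs. Myh3 differed by 4.63 ± 0.71 (SE) on the log2 scale (adjusted p = 0.0105). The cardiac and fetal troponin T gene Tnnt2 had 7.75, 60.4, 7.02, 70.4 and 107 CPM in the ACLT limbs, against 2.33, 1.33, 0.601, 2.25 and 1.20 CPM in the control limbs. Tnnt2 differed by 3.70 ± 0.64 (SE) on the log2 scale (adjusted p = 0.0114). Perinatal myosin Myh8 was highest in mouse 2, with 46.9, 453, 21.5, 147 and 227 CPM in the ACLT limbs, against 23.4, 13.1, 11.5, 14.3 and 15.9 CPM in the control limbs. Myh8 differed by 2.77 ± 0.62 (SE) on the log2 scale (adjusted p = 0.0219). The ACLT value of mouse 3 was under the highest control. Mice 2, 4 and 5 stood far above mice 1 and 3 for Myh3. The fetal growth factor gene Igf2 had 27.7, 218, 19.5, 179 and 274 CPM in the ACLT limbs, against 9.94, 11.9, 7.31, 13.4 and 17.7 CPM in the control limbs. Igf2 differed by 2.86 ± 0.61 (SE) on the log2 scale (adjusted p = 0.0191). Igf1, which promotes growth and repair, had 27.8, 88.4, 31.8, 84.3 and 151 CPM in the ACLT limbs, against 26.5, 19.7, 21.8, 11.2 and 13.2 CPM in the control limbs. Igf1 differed by 1.79 ± 0.42 (SE) on the log2 scale (adjusted p = 0.0241). They were 2 of 5 called members (3 without the mouse block) among 10 genes of the IGF axis.

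Of 15 denervation and neuromuscular junction genes 7 were higher (4 without the mouse block, 5 after median-of-ratios scaling, median 0.55), and 2 of the 7 passed the filter through ACLT limbs alone. Chrng, the fetal subunit of the acetylcholine receptor that adult innervated fibres do not use, had 3.16, 17.3, 5.27, 33.7 and 52.3 CPM in the ACLT limbs of mice 1 to 5, against 0.0846, 0, 0.139, 0.128 and 0.124 CPM in their control limbs. Chrng differed by 3.82 ± 0.55 (SE) on the log2 scale (adjusted p = 0.0094). No control library held more than about 3 reads of Chrng. Chrna1, the subunit common to fetal and adult receptors, had 25.0, 77.4, 21.2, 125 and 190.1 CPM in the ACLT limbs, against 8.25, 12.6, 8.14, 11.4 and 12.2 CPM in the control limbs. Chrna1 differed by 2.50 ± 0.47 (SE) on the log2 scale (adjusted p = 0.0145). Runx1, a transcription factor of denervated muscle, was at 6.51 to 98.9 CPM in ACLT limbs, against 0.962 to 2.68 CPM in control limbs (log2 fold change 3.02 ± 0.59 (SE), adjusted p = 0.016). Contact between nerve and fibre was not measured, nor which cells expressed these genes.

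Of 20 proliferation genes 16 were tested and 15 called higher (11 without the mouse block, median 2.01), but 6 of the 15, Mki67 and Top2a among them, passed the filter through ACLT limbs alone. Mki67, a marker of dividing cells, had 3.60, 21.0, 9.61, 47.6 and 85.9 CPM in the ACLT limbs, against 0.127, 0.285, 0.0925, 0.385 and 0.743 CPM in the control limbs. Mki67 differed by 4.04 ± 0.58 (SE) on the log2 scale (adjusted p = 0.0094). Top2a, which untangles replicated DNA, had 3.90, 15.1, 6.84, 32.9 and 64.9 CPM in the ACLT limbs, against 0.0423, 0.380, 0.139, 0.128 and 0.330 CPM in the control limbs. Top2a differed by 3.82 ± 0.53 (SE) on the log2 scale (adjusted p = 0.00842). Which cells divided was not measured. Among cytoskeletal genes 17 of 19 were higher (median 1.93). Tmsb10, an actin-binding thymosin, was at 44.4 to 550.0 CPM in ACLT limbs, against 10.4 to 17.6 CPM in control limbs (log2 fold change 3.24 ± 0.55 (SE), adjusted p = 0.0112). Lcp1, the plastin of blood cells, was at 14.2 to 129.7 CPM in ACLT limbs, against 1.39 to 4.85 CPM in control limbs (log2 fold change 3.25 ± 0.46 (SE), adjusted p = 0.00842). Of 13 metallothionein and heat shock genes 4 were higher (1 without the mouse block, median 0.34). Mt2, a metal-binding protein whose reads may be shared with its close paralog, had 12.7, 14.5, 9.66, 34.1 and 160.0 CPM in the ACLT limbs, against 3.85, 4.32, 2.13, 2.82 and 4.91 CPM in the control limbs. Mt2 differed by 2.56 ± 0.56 (SE) on the log2 scale (adjusted p = 0.0211). The related Mt3, outside that list, had 6.37, 2.86, 2.50, 4.88 and 7.43 CPM in the ACLT limbs, against 0.592, 0.143, 0.185, 0.513 and 0.413 CPM in the control limbs. Mt3 differed by 2.01 ± 0.22 (SE) on the log2 scale (adjusted p = 0.0024). Mouse 5 was far above the other mice for Mt2, and mouse 1 was close to it for Mt3.

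Signalling genes of the TGF-beta family moved in part. Of 14 genes for TGF-beta ligands, latency proteins and targets 7 were higher (4 without the mouse block, median 0.68). Tgfb1 had 8.14, 14.1, 7.62, 27.1 and 43.1 CPM in the ACLT limbs, against 2.96, 3.61, 2.13, 3.53 and 3.01 CPM in the control limbs. Tgfb1 differed by 2.10 ± 0.37 (SE) on the log2 scale (adjusted p = 0.0121). Ltbp2, a matrix protein related to the TGF-beta binding proteins, was at 1.28 to 178 CPM in ACLT limbs, against 0.238 to 0.834 CPM in control limbs (log2 fold change 3.77 ± 0.86 (SE), adjusted p = 0.0232). Of 16 genes of the myostatin and activin pathway 3 were called higher (1 without the mouse block), beside 15.2% of all genes, among them Fstl1, a secreted follistatin-like protein, at 64.4 to 772 CPM in ACLT limbs, against 23.0 to 55.2 CPM in control limbs (log2 fold change 2.59 ± 0.54 (SE), adjusted p = 0.0184). Mstn, the gene of myostatin (GDF8) itself, was lower in 4 of 5 mice without passing the test, with 40.6, 41.3, 52.6, 56.8 and 48.9 CPM in the ACLT limbs, against 54.3, 68.8, 62.7, 35.0 and 70.4 CPM in the control limbs (adjusted p = 0.329). Its groups overlapped.

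**Figure D4:**
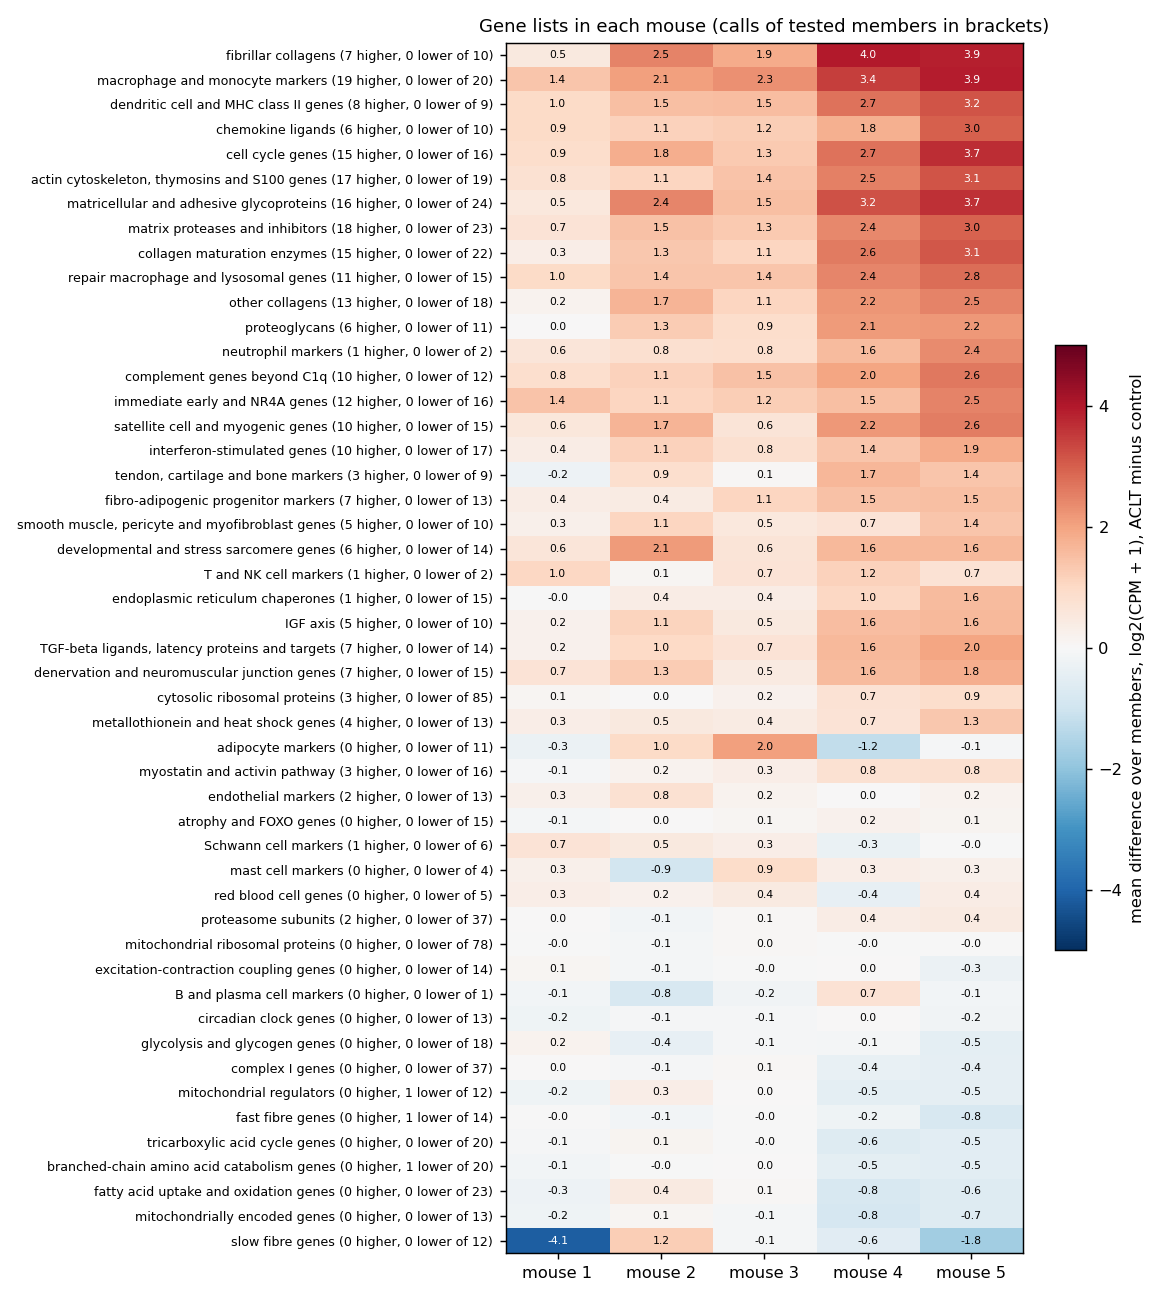
Mean difference in log2(CPM + 1) between ACLT and control limb over the tested members of 49 gene lists (rows, ordered by median fold change) in each of the 5 mice (columns), with the number of called members in brackets. Of 17 lists with a median of at least 1, 16 are largest in mouse 5 and 16 smallest in mouse 1, and the bottom row, slow fibre genes, runs from -4.13 in mouse 1 to 1.23 in mouse 2.

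Genes of mature muscle fibres and their metabolism showed no change of such size. No member was called among 20 tricarboxylic acid cycle genes, 37 genes of complex I, 23 fatty acid genes, 18 glycolysis genes, 13 mitochondrially encoded genes, 14 excitation-contraction coupling genes, 13 circadian clock genes, 15 atrophy genes or 78 mitochondrial ribosomal proteins. Their medians lay between -0.34 and 0.20 as deposited, beside 0.19 over all genes. After median-of-ratios scaling they lay between -0.61 and -0.07, beside -0.05 over all genes, and 3 excitation-contraction coupling genes, 3 circadian clock genes, 3 atrophy genes and 12 mitochondrial ribosomal proteins were then called lower. Over all tested genes 1050 of 13002 were called lower after that scaling. In mice 4 and 5 every tricarboxylic acid cycle, complex I and mitochondrially encoded gene and 22 of 23 fatty acid genes were lower in the ACLT limb. In mouse 2, 15 of 20, 14 of 37, 10 of 13 and 23 of 23 of them were higher, in that order. As deposited, mean differences of these lists lay between -0.83 and -0.39 in mice 4 and 5. They lay between -0.07 and 0.44 in mouse 2 and between -0.26 and 0.07 in mice 1 and 3. Trim63 and Fbxo32, the ubiquitin ligases MuRF1 and atrogin-1 that mark muscle wasting, overlapped between limbs. Trim63 had 204, 155, 191, 201 and 335 CPM in the ACLT limbs, against 172, 169, 191, 154 and 238 CPM in the control limbs (adjusted p = 0.381). Fbxo32 had 329, 368, 539.7, 312 and 316 CPM in the ACLT limbs, against 457, 382, 534, 310.2 and 281 CPM in the control limbs (adjusted p = 0.801). Of 12 mitochondrial regulators Pink1 was lower, and of 20 branched-chain amino acid catabolism genes Acadsb, an acyl-CoA dehydrogenase, was lower, at 116 to 152 CPM in ACLT limbs, against 140.1 to 177 CPM in control limbs (log2 fold change -0.30 ± 0.09 (SE), adjusted p = 0.0479, 0.0863 without the mouse block). After median-of-ratios scaling 2 of these 12 regulators and 5 of these 20 genes were called lower. Of 15 endoplasmic reticulum chaperones 1 was higher (0 without the mouse block, median 0.70), under the 15.2% of all genes. Of 9 tendon, cartilage and bone markers 3 were higher (1 without the block, median 0.98), and 1 of the 3 passed the filter through ACLT limbs alone. Cytosolic ribosomal proteins were called in 3 of 85 cases, under the 15.2% of all genes, and in none without the mouse block. Their median of 0.38 became 0.11 after median-of-ratios scaling. Rpl3 was among the 3, with 66.4, 130.4, 62.2, 227 and 363 CPM in the ACLT limbs, against 48.1, 47.7, 29.8, 44.1 and 51.5 CPM in the control limbs. Rpl3 differed by 1.61 ± 0.39 (SE) on the log2 scale (adjusted p = 0.0252, 0.0521 without the mouse block). Its muscle-specific paralog Rpl3l was at 234 to 491 CPM in ACLT limbs, against 402 to 491 CPM in control limbs (adjusted p = 0.229).

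The 42 lower genes changed little. They were lower in 5 of 5 mice for 40 genes, beside 3.81% of all tested genes. All ACLT values were below all controls for 21, beside 0.477% of all tested genes. The call was made on these same values and favours small changes that the mice share, so this agreement is no separate result. With a fixed block for each mouse 1 gene was called lower. Ubxn2a, which encodes a UBX-domain adaptor of the p97 ATPase, had 131, 127, 149, 135 and 111 CPM in the ACLT limbs of mice 1 to 5, against 160.4, 196, 157, 163 and 175 CPM in their control limbs. Ubxn2a differed by -0.38 ± 0.09 (SE) on the log2 scale (adjusted p = 0.0249). E2f6, a transcriptional repressor, had 153, 158, 173, 154 and 121 CPM in the ACLT limbs, against 188, 202, 183, 214 and 232 CPM in the control limbs. E2f6 differed by -0.43 ± 0.10 (SE) on the log2 scale (adjusted p = 0.0252). Asrgl1, an asparaginase-like enzyme, had 74.6, 70.8, 72.8, 73.1 and 64.8 CPM in the ACLT limbs, against 85.3, 107, 83.9, 89.3 and 121 CPM in the control limbs. Asrgl1 differed by -0.43 ± 0.10 (SE) on the log2 scale (adjusted p = 0.026). These 3 were the lower genes that kept their call without the mouse block. Mylk2, the kinase of fast myosin light chains in skeletal muscle, was the only called member of 14 fast fibre genes, with 956, 649, 1242, 839.8 and 656 CPM in the ACLT limbs, against 1222, 1302, 1391, 1019.5 and 1203 CPM in the control limbs. Mylk2 differed by -0.53 ± 0.16 (SE) on the log2 scale (adjusted p = 0.0449, 0.0821 without the mouse block). Pink1, the kinase that marks damaged mitochondria for removal, had 682, 796, 786, 860.4 and 570.1 CPM in the ACLT limbs, against 859, 1140.1, 802, 1111 and 1083 CPM in the control limbs. Pink1 differed by -0.43 ± 0.13 (SE) on the log2 scale (adjusted p = 0.0467, 0.0821 without the mouse block). Ostn, the muscle-secreted peptide osteocrin, had 10.95, 13.9, 12.8, 13.8 and 8.13 CPM in the ACLT limbs, against 17.0, 35.1, 19.8, 13.0 and 19.0 CPM in the control limbs. Ostn differed by -0.70 ± 0.21 (SE) on the log2 scale (adjusted p = 0.0478, 0.0863 without the mouse block). Here mouse 4 went the other way.

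Slow fibre genes differed strongly between the limbs of some mice, but not in a common direction. None of 12 was called, and their median log2 fold change was -0.87. All 12 were lower in the ACLT limb of mouse 1, all 12 higher in that of mouse 2, and 9 of 12 lower in each of mice 3, 4 and 5. Myh7, the slow myosin heavy chain, had 0.740, 762, 86.5, 123 and 11.8 CPM in the ACLT limbs of mice 1 to 5, against 1424, 344, 122, 570.2 and 873 CPM in their control limbs (adjusted p = 0.0854), the largest spread of within-mouse differences of any tested gene. The slow light chain Myl3 had 11.3, 326, 61.4, 47.0 and 3.18 CPM in the ACLT limbs, against 513, 142, 64.9, 293 and 216 CPM in the control limbs (adjusted p = 0.0847). Homer2, a scaffold protein, had 12.8, 50.9, 28.6, 35.8 and 20.5 CPM in the ACLT limbs, against 43.1, 46.6, 28.7, 76.8 and 59.3 CPM in the control limbs (adjusted p = 0.0863).

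**Figure D5:**
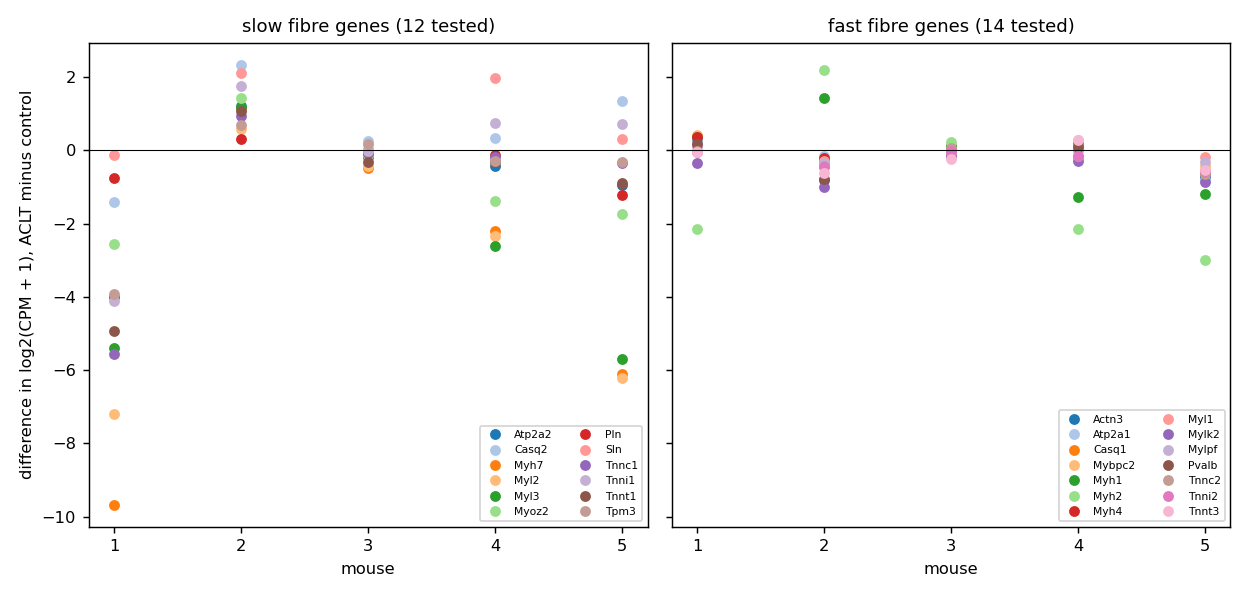
Difference in log2(CPM + 1) between the ACLT and control limb (y axis) in mice 1 to 5 (x axis) for 12 slow fibre genes (left) and 14 fast fibre genes (right), 1 point per gene. Slow genes reach -9.68 for Myh7 in mouse 1 and 2.34 for Casq2 in mouse 2, and fast genes other than Myh1 and Myh2 reach no higher than 0.41.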

How the data were processed

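RNA of whole quadriceps was sequenced, and the authors deposited 1 table of 17415 genes in CPM, normalized so that each library has the same total. The submitters' processing notes name STAR 2.7.3a, Partek and DESeq2 and the builds mm10 and mm39, and coordinates of the table were not used. Whether counting used the strand is not given in the sources used here. Raw counts were not used: 43.3% to 79.5% of values came within 0.02 of a whole read, too few for a count test.

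Tests took genes that reached 1 CPM in 5 or more libraries and used log2(CPM + 1) in limma 3.58.1 in R 4.3.3 (empirical Bayes with a mean trend, mouse as a random block by duplicateCorrelation, consensus correlation 0.195, two-sided, Benjamini-Hochberg adjustment over 13002 genes, threshold 0.05). The fit was also run on simulated data in which both groups had the spread of the control libraries. ACLT libraries varied more than controls, so that run could not check the error of the calls made here. Fold changes on this scale understate changes of low genes. The study took both limbs of each animal, and libraries with the same number in the labels were taken as such a pair, which the labels do not state. Deviations from group means of same-numbered limbs correlated at 0.21, 0.0093, 0.45, 0.21 and 0.21 in mice 1 to 5, so 4 of 5 pairs exceeded 0.1. Against the 5 libraries of the other group, the same-numbered library correlated best in only 4 of 10 cases. The ACLT limb of mouse 2 correlated at 0.42 with another control limb. Y-linked and Xist expression was present or absent alike within each pair, which cannot tell mice with the same pattern apart.

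The named genes were the called genes with the lowest p and the largest changes, called and abundant members of 49 gene lists, genes named by the study, those most variable between mice, and sex-linked genes. Casq2, Myh1, Myh2, Cd4 and Cd22 were added after their values were seen. The members and lists were chosen with earlier results of these data known. Alternatives were the fit without a block, a fixed block, all 20 libraries, another pseudocount, other filters, median-of-ratios scaling and leaving out each mouse. Promoter sequences are from RefSeq, build GRCm38.p6.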

Additional observations from a re-analysis of the deposited data

Results flagged for a closer look

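Among 5 libraries of a group, or 5 within-mouse differences, some values lay far from the others, judged by the gap to the nearest value as a share of the whole range. Chance alone gives such a gap in about 1 of 20 groups, and here 9 of 241 sets of 5 values showed one. In ACLT limbs the value of mouse 5 stood apart for Ccl2 (0.720 of the range). In control limbs mouse 3 was apart at the low end for Cd68 (0.945), C1qtnf3 (0.749) and Rpl3 (0.715), mouse 1 at the low end for Aplnr (0.734), and mouse 2 at the high end for Ccl2 (0.829) and Nr4a3 (0.775). The mean difference of red blood cell genes was lowest in mouse 4 (0.729), at -0.43, and that of fast fibre genes was lowest in mouse 5 (0.729), at -0.79.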

How the results depend on the processing

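Genes higher in ACLT limbs numbered 1974, against 710 without the mouse block (no replicate block), 3644 and 4525 in fits of all 20 libraries without and with the block, 317 with a filter at 10 CPM, and 11 to 3302 with 1 mouse left out. Genes lower in ACLT limbs numbered 42, against 3 without the block, 1 with a fixed block for each mouse, 201 and 416 in the 20-library fits without and with the block, 3 at 10 CPM, 1050 after median-of-ratios scaling and 0 to 39 with 1 mouse left out. The cause of these shifts was not tested. Genes with every ACLT library above every control numbered 1315, against 480 at 10 CPM and 1480 to 2770 with 1 mouse left out. Genes with every ACLT library below numbered 62, against 600 after median-of-ratios scaling and 80 to 226 with 1 mouse left out.

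Of 74 called genes named above, 62 kept their call without the block, 64 with a fixed block, 73 after median-of-ratios scaling and 11 without mouse 2 or without mouse 4, and none changed sign under any alternative. Uncalled genes with small differences did. After median-of-ratios scaling the log2 fold change became -0.25 for Fmod, -0.071 for Lamp1, -0.14 for Nr4a1, -0.026 for P4ha1 and -0.070 for Trim63. With a pseudocount of 0.25 it became 0.0100 for Cd3e. With 1 mouse left out it ran from -0.29 to 0.22 for Cd3e, -0.13 to 0.035 for Fbxo32, -0.31 to 0.49 for Fmod, -0.31 to 0.068 for Ighm, -0.50 to 0.18 for Myh1, -0.19 to 0.046 for Myh4 and -0.071 to 0.031 for Serpine2.

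Depth limits genes near 3 reads, 0.124 to 0.193 CPM, and 5 mice limit every test.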
